A study of Mus musculus with 6 samples.

Results

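CircRNAs of host genes that act in vesicle and membrane traffic were described in the striatum of HuD KO and WT mice. They were the circRNA probes whose host symbol starts with one of a set of traffic gene names (for example Vps, Snx, Exoc, Syt, Stx, Rims, Erc, Sec, Dnm1 or Atg) and that appear in the deposited tables of circRNAs higher or lower in HuD KO, or in the study's list of circRNAs bound by HuD. This rule found 92 of the 14236 circRNA probes on the array, from 65 host genes. Of these, 53 were in the deposited higher table, 19 in the lower table and 20 only on the HuD-bound list. In all, 24 were HuD-bound, since Rims1 mmu_circRNA_19745 and mmu_circRNA_19748 and Erc2 mmu_circRNA_27321 and mmu_circRNA_016816 were also in the higher table.

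The HuD KO group held 3 samples of striatum from adult male C57BL6 mice that lack HuD (Elavl4 -/-), and the WT group held 3 samples of striatum from their male C57BL6 littermates. HuD is a neuronal RNA-binding protein. RNA was digested with RNase R, which removes linear RNA, labelled with Cy3 and hybridised to 1-colour circRNA arrays. The HuD-bound list came from other mice, which overexpress myc-tagged HuD and whose striata were pooled for immunoprecipitation.

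A circRNA forms when a downstream splice donor joins an upstream acceptor, so that exons of the host close into a ring. Vesicle traffic carries membrane between the ER, the Golgi, endosomes and the cell surface. At the synapse, Rims and Erc proteins build the active zone, SNARE proteins (the syntaxin and SNAP families) fuse the vesicle with the membrane, synaptotagmins sense calcium, and dynamin and adaptor proteins take the membrane back.

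The printed sequences are the 60-base sequences given for the probes that carry the results on the release machinery: the circles of Rims1 and Erc2, which build the active zone, and of Syt1, the calcium sensor. Capitals mark ATTTA or TTTTT where a sequence holds one.
Rims1 mmu_circRNA_014781: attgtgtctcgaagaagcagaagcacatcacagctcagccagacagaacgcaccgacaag
Rims1 mmu_circRNA_19745: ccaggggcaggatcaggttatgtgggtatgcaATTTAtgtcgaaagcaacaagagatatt
Rims1 mmu_circRNA_19748: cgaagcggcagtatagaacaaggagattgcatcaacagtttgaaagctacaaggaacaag
Erc2 mmu_circRNA_27305: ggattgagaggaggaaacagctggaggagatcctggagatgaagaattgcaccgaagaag
Erc2 mmu_circRNA_27321: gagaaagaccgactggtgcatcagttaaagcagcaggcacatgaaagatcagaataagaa
Erc2 mmu_circRNA_016816: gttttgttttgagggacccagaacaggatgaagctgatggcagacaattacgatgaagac
Syt1 mmu_circRNA_22593: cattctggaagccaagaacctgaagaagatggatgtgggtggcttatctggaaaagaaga
In the order printed, the Rims1 circles spanned chr1:22346292-22397563, chr1:22373343-22538623 and chr1:22397450-22596584, on the minus strand. The Erc2 circles spanned chr14:27876586-28141381, chr14:28080131-28271725 and chr14:28302875-28317314, on the plus strand. The Syt1 circle spanned chr10:108583873-108902315, on the minus strand. All 7 were annotated as exonic. The deposited tables name no build. Of the 92 positions, 91 lay inside the span of the host gene in RefSeq's GRCm38.p6, so they were read as that build. The exception was Snx10 mmu_circRNA_40269.

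A second set shows circles of 1 host that moved in opposite directions. Dnajc13 encodes an endosomal DnaJ co-chaperone and Vps13c a lipid transfer protein.
Dnajc13 mmu_circRNA_45007: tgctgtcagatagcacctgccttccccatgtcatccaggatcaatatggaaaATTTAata
Dnajc13 mmu_circRNA_45008: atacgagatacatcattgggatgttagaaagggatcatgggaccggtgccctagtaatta
Vps13c mmu_circRNA_44535: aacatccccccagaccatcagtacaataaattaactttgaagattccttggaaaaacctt
Vps13c mmu_circRNA_44536: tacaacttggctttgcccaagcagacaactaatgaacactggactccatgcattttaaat
The Dnajc13 circles spanned chr9:104196022-104212904 and chr9:104203171-104218682 on the minus strand, and the Vps13c circles chr9:67858789-67879135 and chr9:67876226-67890389 on the plus strand. The longest run of bases shared by the probes of a pair was 6 bases for Dnajc13 and 5 bases for Vps13c.

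A further set shows pairs of circles that share an end, so that their probes share part of their sequence. Capitals mark the longest run common to the pair.
Erc1 mmu_circRNA_017168: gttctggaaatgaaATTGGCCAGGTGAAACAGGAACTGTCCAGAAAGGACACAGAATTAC
Erc1 mmu_circRNA_006367: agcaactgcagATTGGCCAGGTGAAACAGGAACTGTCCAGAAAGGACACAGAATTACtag
Vps13b mmu_circRNA_28417: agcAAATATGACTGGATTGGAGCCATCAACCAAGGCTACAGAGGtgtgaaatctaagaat
Vps13b mmu_circRNA_19131: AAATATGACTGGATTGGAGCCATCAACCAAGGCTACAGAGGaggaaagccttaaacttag
Sec62 mmu_circRNA_35204: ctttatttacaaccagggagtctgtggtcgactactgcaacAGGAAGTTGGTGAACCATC
Sec62 mmu_circRNA_35205: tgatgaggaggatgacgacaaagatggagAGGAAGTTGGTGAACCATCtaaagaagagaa
Atg4c mmu_circRNA_37226: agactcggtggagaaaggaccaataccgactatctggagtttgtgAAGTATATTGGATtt
Atg4c mmu_circRNA_37227: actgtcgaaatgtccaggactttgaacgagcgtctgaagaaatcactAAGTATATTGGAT
The shared run was 46 bases for Erc1, 41 bases for Vps13b, 19 bases for Sec62 and 13 bases for Atg4c. These probes may take up each other's target in part, which was not tested, so their values are not treated as independent.

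Each array had 84.0% to 96.7% of its 14236 circRNA probes well above background, and HuD KO 1 had the fewest. The 75th percentile of the intensity was 181 to 277 in HuD KO and 143 to 164 in WT. Levels are log2 intensities from which this percentile of the same array was subtracted. All 3 WT arrays were in 1 scan, HuD KO 1 and 2 in another, and HuD KO 3 in a scan of its own. Scan and genotype therefore cannot be told apart. None of the 3056 circRNAs in the sources used here had Elavl4 as its named host, so the loss of HuD was not checked on these arrays. In RNA from whole tissue, fewer cells of a type and less RNA per cell cannot be told apart.

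All 92 circRNAs were tested, and 89 were well above background on all 6 arrays. In 83 of the 92, the HuD KO and WT arrays did not overlap, against 70.2% of the 13445 probes tested over the array. Most of the 92 were chosen on this contrast, so this count is a description. Among the 72 circRNAs in the deposited tables, 53 (73.6%) were higher in HuD KO, with a median log2 change of 1.30 and a range from 0.91 to 2.51. The 19 lower ones had a median of -1.71 and ranged from -0.90 to -5.06. The far ends, Erc1 mmu_circRNA_017168 and Exoc6b, were each well above background on only 1 array of the dimmer group, so their sizes are uncertain, and among circRNAs well above background on all arrays the ends were 2.43 and -3.42. Over all 2488 circRNAs of the deposited tables, 1140 (45.8%) were higher. The tables were made on these same arrays, so no test is given for circRNAs known from them alone. Those that are also on the HuD-bound list are given with limma p-values below.

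**Figure D1:**
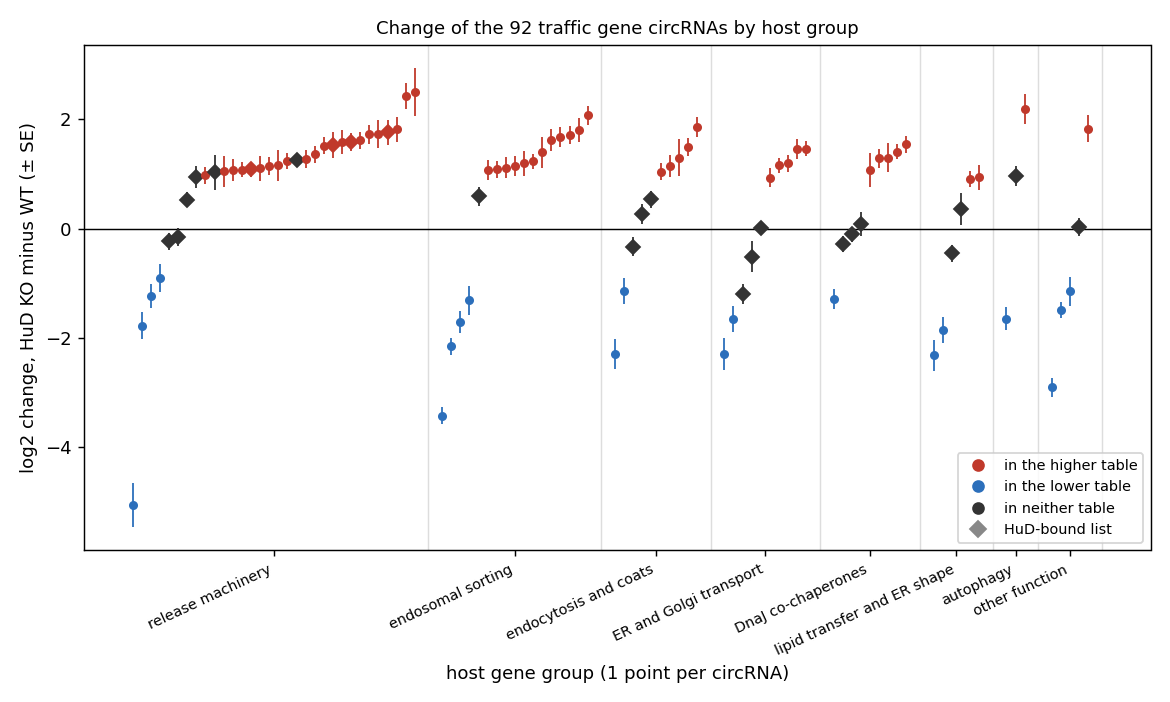
Log2 change (HuD KO minus WT, n = 3 arrays each) of the 92 circRNAs, in groups set by the prefix of the host symbol. Each point is 1 circRNA with its standard error. Red and blue points were chosen by the deposited tables and diamonds are on the HuD-bound list. The release machinery holds 22 of its 26 table members above 0, and the lowest point drawn, at -5.06, is the antisense circle of Exoc6b, which was well above background on only 1 HuD KO array.

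The table members divided by group as follows. Groups were set by the prefix of the host symbol, not by what each protein does. All Vps hosts, the lipid-carrying VPS13 proteins among them, thus count as endosomal sorting. All Stx hosts, the Golgi SNARE Stx5a among them, count as release machinery. For the release machinery, 22 of 26 were higher in HuD KO, from 12 host genes. For endosomal sorting 12 of 16 were higher, for endocytosis and coats 5 of 7, for ER and Golgi transport 5 of 7, and for DnaJ co-chaperones 5 of 6. Lipid transfer and ER shape had 2 of 4 higher, and autophagy 1 of 2. Of the 5 circRNAs whose hosts match a traffic prefix by spelling alone (Cops3, Cops7b and Cops8 of the COP9 signalosome, Ercc5 of DNA repair and Snapc1 of snRNA transcription), 4 were in a table and 1 of these was higher.

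The 24 HuD-bound circRNAs were chosen in other mice, so the contrast was tested on them. With limma and a Benjamini-Hochberg adjusted p under 0.05, 11 rose, 2 fell and 11 did not pass. Of all probes tested 63.4% were called, 26.2% higher and 37.2% lower. The median log2 change of the 24 was 0.31, against -0.11 over all probes tested. Over all probes, however, the change rose with signal. From the dimmest (bin 1) to the brightest (bin 10) of 10 signal bins, the median change went from -1.59 to 0.49. It was 0.19 in bin 8 and 0.33 in bin 9. The median signal of the 24 lay at percentile 78.4 of the probes. The 24 were not tested against probes of like signal, so 0.31 against -0.11 is a description. The other 633 HuD-bound circRNAs that were tested had 269 (42.5%) called higher, 90 (14.2%) called lower and a median of 0.37. The share of the 24 called higher (45.8%) was thus close to that of the rest of the list. Leaving out the 4 in the higher table, which conditions on the contrast, 7 of 20 rose, 2 fell and the median was 0.06. Of the other 547 HuD-bound circRNAs in neither table, 202 (36.9%) were called higher and 71 (13.0%) lower, and their median was 0.30. The difference between these medians was not tested.

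**Figure D2:**
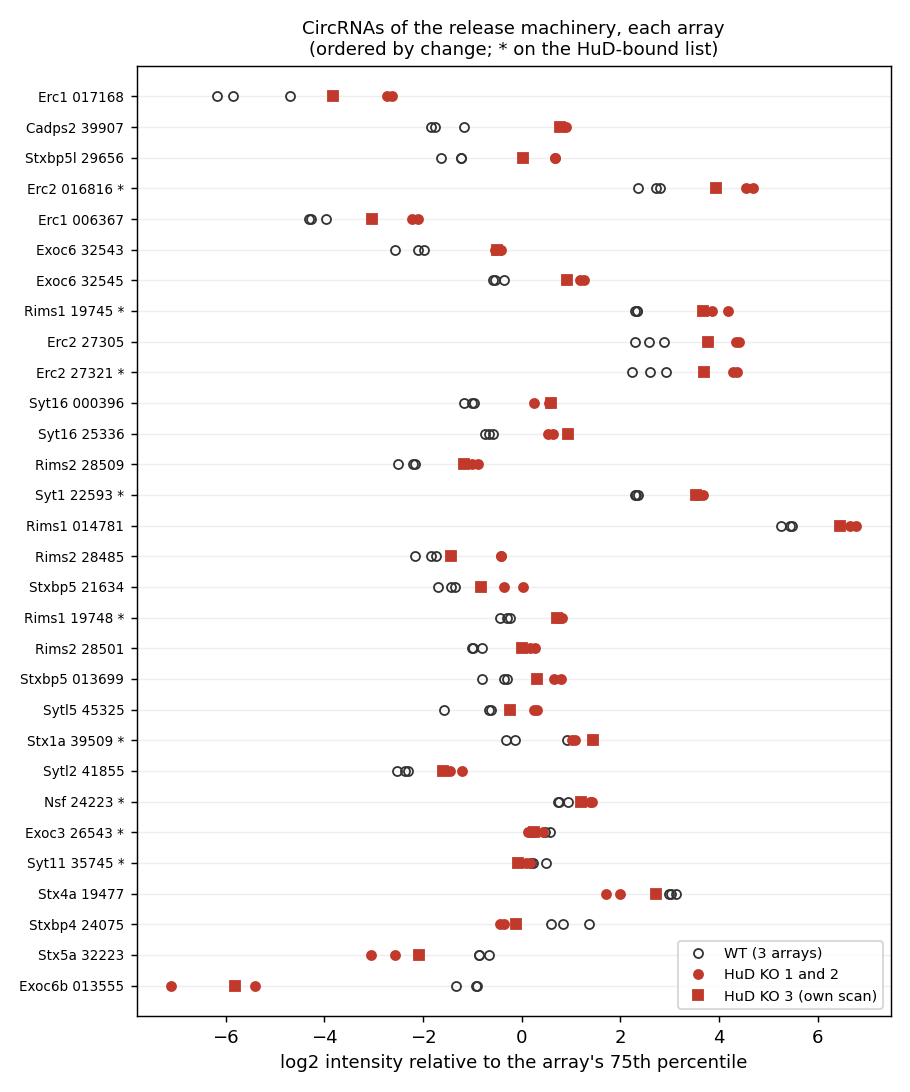
Level on each array (log2 intensity, with the 75th percentile of the array at 0) of 30 of the 32 circRNAs of the release machinery, ordered by change, with open circles for the 3 WT arrays, filled circles for HuD KO 1 and 2 and squares for HuD KO 3. In Rims1, Erc2 and Syt1 all HuD KO arrays lie to the right of all WT arrays, while Exoc3 overlaps.

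Within the HuD-bound list, 8 of the 10 circRNAs of the release machinery rose and none fell (limma, also at an unadjusted p under 0.05), with a median log2 change of 1.06. Of the 8, the Rims1 and Erc2 circles were also in the higher table, which was made on this contrast. The count depended on the scaling. With the circRNA control probes setting the scale, 4 of the 10 were called higher, Exoc3 and Syt11 were called lower and the median was 0.27, and without any scaling the median was 1.58. Of the 14 in the other groups, 3 rose, 2 fell and the median was 0.02. The difference between these sets was not tested. Exoc3 and Syt11 did not pass with the 75th percentile.

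Rims1 encodes an active zone scaffold that binds Rab3 and calcium channels. On HuD KO arrays 1, 2 and 3, Rims1 mmu_circRNA_19745 had levels of 4.19, 3.87 and 3.68, and the WT arrays had 2.35, 2.29 and 2.34. All HuD KO values were above all WT values, and the log2 change was 1.59 ± 0.16 (SE, n = 3 each; 3.01-fold, limma adjusted p = 0.000143). For Rims1 mmu_circRNA_19748, levels were 0.83, 0.74 and 0.73 in HuD KO and -0.29, -0.44 and -0.24 in WT. Its arrays were again apart, by 1.09 ± 0.13 (2.12-fold, limma adjusted p = 0.000302). Another Rims1 circle, mmu_circRNA_014781, is not on the HuD-bound list and was taken from the higher table. It had 6.78, 6.65 and 6.45 in HuD KO and 5.48, 5.44 and 5.25 in WT, a change of 1.24 ± 0.15.

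Erc2 (CAST) is a scaffold that binds Rims at the active zone. Erc2 mmu_circRNA_016816 had levels of 4.69, 4.55 and 3.94 on the HuD KO arrays and 2.82, 2.72 and 2.36 on the WT arrays. The change was 1.76 ± 0.23 (3.39-fold, limma adjusted p = 0.000397), with HuD KO 3 nearest to WT. Erc2 mmu_circRNA_27321 gave 4.37, 4.29 and 3.70 against 2.93, 2.60 and 2.23, a change of 1.53 ± 0.24 (limma adjusted p = 0.00106). The other circle, mmu_circRNA_27305, from the higher table, gave 4.41, 4.36 and 3.78 against 2.88, 2.59 and 2.30, a change of 1.59 ± 0.23. The 3 changes differed by at most 0.23, although mmu_circRNA_27305 and mmu_circRNA_016816 do not overlap along the gene and no pair of the 3 probes shared a run of over 8 bases.

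**Figure D3:**
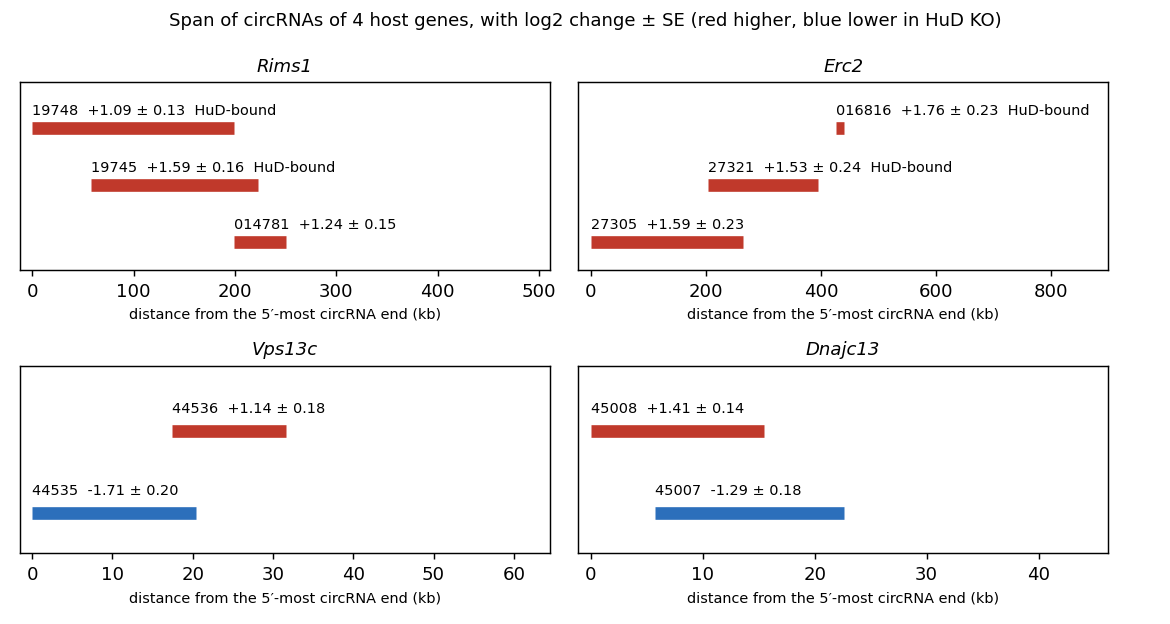
Span of the circles of Rims1, Erc2, Vps13c and Dnajc13 along the host gene, read 5′ to 3′, in kb from the 5′-most end, with the log2 change ± SE (n = 3 arrays each) beside each bar; red is higher and blue lower in HuD KO. All circles of Rims1 and Erc2 are red, and the overlapping circles of Vps13c (-1.71 and 1.14) and of Dnajc13 (-1.29 and 1.41) have opposite colours.

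Syt1, the calcium sensor of synchronous release, was HuD-bound and in neither deposited table. Its circle mmu_circRNA_22593 had levels of 3.68, 3.56 and 3.53 in HuD KO and 2.30, 2.36 and 2.33 in WT. The arrays within a group were close, and the change was 1.26 ± 0.13 (2.40-fold, limma adjusted p = 0.000137). Stx1a, the plasma membrane SNARE, had 1.09, 1.02 and 1.45 in HuD KO and 0.92, -0.14 and -0.32 in WT for mmu_circRNA_39509. WT 1 lay just below the HuD KO arrays, and the change of 1.03 ± 0.32 (limma adjusted p = 0.0223) lost its call without HuD KO 3, WT 2 or WT 3, with the methods' t-test, with scan as a random block and with the control probes.

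Nsf, the ATPase that takes SNARE complexes apart, had 1.43, 1.39 and 1.20 against 0.94, 0.75 and 0.73 for mmu_circRNA_24223. This change was 0.53 ± 0.14 (1.45-fold, limma adjusted p = 0.0114), and its call was lost without WT 2, with scan as a random block and with the control probes.

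Exoc3, a subunit of the exocyst that tethers vesicles, had 0.13, 0.44 and 0.25 in HuD KO and 0.48, 0.58 and 0.21 in WT for mmu_circRNA_26543. The groups overlapped, with a log2 difference of -0.15 ± 0.16 (limma adjusted p = 0.435). Syt11, a synaptotagmin without calcium binding, had a difference of -0.23 ± 0.15 for mmu_circRNA_35745 (limma adjusted p = 0.21).

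Among the release machinery circles known from the higher table alone, Cadps2, a priming factor of dense-core vesicles, had levels of 0.91 and 0.77 on HuD KO 2 and 3 and -1.83, -1.75 and -1.18 on the WT arrays for mmu_circRNA_39907. The spot on HuD KO 1 was flagged as an outlier and left out, so that the change of 2.43 ± 0.23 rests on 2 HuD KO arrays. Stxbp5l, a tomosyn that holds back SNARE assembly, had 0.67, 0.68 and 0.02 against -1.23, -1.22 and -1.63 for mmu_circRNA_29656, a change of 1.82 ± 0.22. Erc1, the paralog of Erc2, had changes of 2.51 ± 0.44 and 1.73 ± 0.26 for mmu_circRNA_017168 and mmu_circRNA_006367, whose probes share 46 bases. The first was well above background on only 1 WT array. The 3 circles of Rims2, the paralog of Rims1, had changes from 1.08 to 1.28, and those of Exoc6, another exocyst subunit, 1.62 and 1.73.

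The 4 release machinery circles in the lower table came from Exoc6b, Stx5a, Stxbp4 and Stx4a. Exoc6b mmu_circRNA_013555 is antisense to its host and was well above background on all WT arrays but only 1 HuD KO array. Its levels were -5.40, -7.10 and -5.81 in HuD KO and -0.90, -0.92 and -1.32 in WT. Stx5a, a Golgi SNARE, had -3.05, -2.56 and -2.09 against -0.65, -0.86 and -0.87 for mmu_circRNA_32223, a change of -1.77 ± 0.24. Stxbp4 mmu_circRNA_24075 was lower by -1.23 ± 0.21. The intronic circle of Stx4a, a plasma membrane SNARE, had 2.0, 1.71 and 2.72 in HuD KO and 3.03, 2.98 and 3.12 in WT for mmu_circRNA_19477, with HuD KO 3 nearest to WT.

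Endosomal sorting had the most negative change among the 89 traffic circRNAs detected above background on every array. Snx10, a sorting nexin of endosomes, had levels of 3.66, 3.48 and 3.33 in HuD KO and 6.77, 6.92 and 7.05 in WT for mmu_circRNA_40266. The change was -3.42 ± 0.15, or 10.7-fold lower in HuD KO, with all arrays of a group close together. A second Snx10 circle, mmu_circRNA_40269, annotated as sense overlapping, had -4.14, -3.69 and -3.91 against -1.65, -1.72 and -1.91, a change of -2.15 ± 0.16. Its probe shared a run of at most 5 bases with that of the first.

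The VPS13 proteins carry lipids between membranes at contact sites. Vps13a mmu_circRNA_32268 had -0.06, -0.21 and -0.52 in HuD KO and -2.58, -2.15 and -2.26 in WT, a change of 2.07 ± 0.18. Vps13b had 3 circles in the higher table, with changes of 1.80 ± 0.22 for mmu_circRNA_28417, 1.71 ± 0.16 for mmu_circRNA_19131 and 1.12 ± 0.19 for mmu_circRNA_28406. The probes of the first 2 share 41 bases, so these values are not treated as independent. In Vps13c the overlapping circles went in opposite directions. Vps13c mmu_circRNA_44535 had -1.95, -1.94 and -1.28 in HuD KO and 0.06, -0.02 and -0.06 in WT, a change of -1.71 ± 0.20. Vps13c mmu_circRNA_44536, which overlaps it over 2909 bases, had -0.25, -0.05 and -0.49 in HuD KO and -1.61, -1.46 and -1.15 in WT, a change of 1.14 ± 0.18.

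Dnajc13 showed the same arrangement over an overlap of 9733 bases. Its circle mmu_circRNA_45007 had 0.80, 0.69 and 1.30 in HuD KO and 2.28, 2.20 and 2.18 in WT, a change of -1.29 ± 0.18. Its circle mmu_circRNA_45008 had -1.0, -0.84 and -0.84 in HuD KO and -2.23, -2.26 and -2.42 in WT, a change of 1.41 ± 0.14. Of the 17 traffic hosts with over 1 circle in the deposited tables, these were the 2 with circles in both tables. Over all hosts with over 1 circle there, 89 of 401 (22.2%) had circles in both. Of the 29 pairs of table members of 1 host, 27 went the same way. Some of these pairs share an end and part of their probe sequence. The shared run was 46 bases for Erc1, 41 for Vps13b, 33 for Snx2, 31 for Dnajc1 and 25 for Snx27. The agreement within such pairs is not treated as independent, and no such count over all hosts is given here.

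Snx13, the HuD-bound sorting nexin, had levels of 1.38, 1.84 and 1.95 in HuD KO and 1.12, 1.09 and 1.17 in WT for mmu_circRNA_24929. It rose by 0.59 ± 0.18 (limma adjusted p = 0.0191), a call lost after quantile normalization, with the control probes, with the methods' t-test, with scan as a random block and without HuD KO 2, WT 1 or WT 2. Among the others of this group, Snx1 of the retromer-linked sorting nexins was lower by -1.31 ± 0.27, while Snx5, Snx27, Snx29, Snx2 and Vps54 circles were higher by 1.07 to 1.68. The probes of the Snx27 pair share a run of 25 bases, and those of the Snx2 pair a run of 33 bases.

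In endocytosis and coats, Snap91 (AP180), a clathrin adaptor of synaptic vesicles, had 2.56, 2.37 and 1.96 in HuD KO and 0.52, 0.31 and 0.46 in WT for mmu_circRNA_44775, a change of 1.87 ± 0.18. Ap2b1, a subunit of the AP-2 adaptor, had a change of 1.5 ± 0.16 for mmu_circRNA_23879. Synj1 (synaptojanin), the phosphatase that uncoats vesicles, had -0.48, -0.32 and 0.58 in HuD KO and 2.21, 2.23 and 2.21 in WT for mmu_circRNA_30024. Its change of -2.29 ± 0.27 came with HuD KO 3 nearest to WT. Ap3m2 of the AP-3 adaptor was lower by -1.14 ± 0.23 for mmu_circRNA_42635.

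Dnm1, the neuronal dynamin that cuts vesicles from the membrane, had 2 HuD-bound circles. Dnm1 mmu_circRNA_006320 had 2.67, 2.79 and 2.93 in HuD KO and 2.46, 2.23 and 2.08 in WT, and rose by 0.54 ± 0.16 (limma adjusted p = 0.017). The call was lost after quantile normalization of the corrected or the uncorrected intensity, with the control probes, with scan as a random block and without WT 2. Dnm1 mmu_circRNA_33286 had 2.15, 2.42 and 2.68 against 2.27, 2.20 and 1.96, with overlapping groups and a difference of 0.27 ± 0.18 (limma adjusted p = 0.213). For the scaffold Itsn2, mmu_circRNA_24602, the difference was -0.33 ± 0.17 (limma adjusted p = 0.127).

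In ER and Golgi transport, Sec62, a part of the ER translocon, gave the largest fall of the 24 HuD-bound traffic circRNAs. Sec62 mmu_circRNA_35204 had -3.60, -3.93 and -3.76 in HuD KO and -2.47, -2.87 and -2.38 in WT. It fell by 1.19 on the log2 scale (SE 0.18, limma adjusted p = 0.000776), and this call was lost after quantile normalization of the corrected or the uncorrected intensity. The other Sec62 circle, mmu_circRNA_35205, starts at the same base, and its probe shares 19 bases. It had -1.46, -1.83 and -2.30 against -1.61, -1.63 and -0.83, a difference of -0.51 ± 0.28 (limma adjusted p = 0.151).

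Sec23a and Sec23b encode alternative inner coat subunits of COPII vesicles, and Sec24a and Sec24d alternative cargo adaptors of the same coat. Sec23a mmu_circRNA_25171, HuD-bound, had -1.07, -1.0 and -0.88 in HuD KO and -1.03, -1.05 and -0.91 in WT, a difference of 0.01 ± 0.13 (limma adjusted p = 0.942). Sec23b mmu_circRNA_34712, from the lower table, had -1.02, -0.86 and -0.88 against 1.08, 0.97 and 0.15, a change of -1.65 ± 0.25. The probes of these paralogs are printed here because they share a run of 17 bases, in capitals.
Sec23a mmu_circRNA_25171: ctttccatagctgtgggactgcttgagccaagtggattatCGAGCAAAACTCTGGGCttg
Sec23b mmu_circRNA_34712: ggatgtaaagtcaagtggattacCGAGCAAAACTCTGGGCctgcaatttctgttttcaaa
Sec24a mmu_circRNA_23308 was higher by 1.47 ± 0.14. Sec24d mmu_circRNA_36107 had -0.63, -0.64 and 0.43 in HuD KO and 2.07, 2.08 and 1.89 in WT, a change of -2.30 ± 0.29. All 3 circles of Copg2, a COPI coat subunit, were higher by 1.16 to 1.46.

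Atg4c, a protease that processes the autophagosome protein LC3 and its relatives, had circles on both sources. Atg4c mmu_circRNA_37227, from the higher table, had 2.32, 2.45 and 2.02 in HuD KO and -0.38, -0.07 and 0.69 in WT, a change of 2.18 ± 0.27. The HuD-bound mmu_circRNA_37226 starts at the same base and had 2.49, 2.82 and 2.60 against 1.55, 1.47 and 2.01. It rose by 0.96 ± 0.19 (limma adjusted p = 0.00271). Atg13, of the kinase complex that starts autophagy, had 3.50, 3.34 and 4.07 in HuD KO and 5.14, 5.34 and 5.38 in WT for mmu_circRNA_34060, a change of -1.65 ± 0.21.

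Of the lipid transfer and ER shape group, Atl2, an atlastin that fuses ER tubules, had -1.73, -1.84 and -1.62 in HuD KO and -1.32, -1.08 and -1.44 in WT for mmu_circRNA_30983. It fell by 0.45 (SE 0.15, limma adjusted p = 0.0317), and the call held in 10 of 20 alternatives. The oxysterol-binding proteins divided. The intronic circle of Osbpl7, mmu_circRNA_19039, was lower by -2.32 ± 0.28. Osbpl9 mmu_circRNA_37413, annotated as sense overlapping, was lower by -1.86 ± 0.24. Circles of Osbpl3 (0.94 ± 0.22) and Osbpl1a (0.91 ± 0.15) were higher. The HuD-bound Osbpl8 mmu_circRNA_22628 differed by 0.36 ± 0.29 (limma adjusted p = 0.311).

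The DnaJ co-chaperones, which direct Hsc70 to its substrates, held 3 HuD-bound circles. Dnajc5 is the synaptic vesicle protein CSP. Differences were -0.28 ± 0.14 for Dnajc5 (limma adjusted p = 0.122), 0.09 ± 0.22 for Dnajc27 (limma adjusted p = 0.741) and -0.10 ± 0.14 for Dnajc7 (limma adjusted p = 0.54), so none passed. The 3 circles of Dnajc1 were higher by 1.29 to 1.54. The probes of its circles mmu_circRNA_33068 and mmu_circRNA_017671 share a run of 31 bases. Among the prefix matches of other function, Ercc5 was higher by 1.83 ± 0.25, Snapc1 lower by -1.48 ± 0.15, Cops8 lower by -1.15 ± 0.26, and Cops3 lower by -2.90 ± 0.17 with 2 HuD KO arrays well above background. The HuD-bound Cops7b differed by 0.03 ± 0.17 (limma adjusted p = 0.868).

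The threshold of the deposited tables was a fold change of 2 on the authors' own normalized values. On the values used here, the log2 changes of smallest size among the table members were those of Stx4a (-0.90) and Osbpl1a (0.91). Those of largest size among the HuD-bound circRNAs in neither table were those of Syt1 (1.26), Sec62 (-1.19) and Stx1a (1.03). Whether the normalization or the p-value kept these out of the tables was not tested. With that fold and an unadjusted limma p under 0.05 on the values used here, 33.9% of all probes tested passed, 9.43% higher and 24.5% lower, and 2 of the 20 HuD-bound circRNAs outside the tables were higher and 1 was lower.

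The scaling between arrays set the direction of many HuD-bound circRNAs. Over all probes tested, the median log2 change was -0.11 with the 75th percentile, 0.12 after quantile normalization, 0.09 with median scaling and 0.41 without any scaling. It was -0.90 when the circRNA control probes set the scale. With that last scaling, 4 of the 24 HuD-bound circRNAs were called higher and 11 lower. Rims1 mmu_circRNA_19745, both Erc2 circles and Syt1 were called higher in all 20 alternatives. Rims1 mmu_circRNA_19748 and Atg4c lost their call only with the control probes. All 72 table members kept their direction under each of the 20 alternatives that gave them a value. They were chosen for large changes on these same arrays, so this is a description. Their sizes moved with the scaling. The median of the higher members was 0.51 with the control probes, against 1.30 with the 75th percentile. That of the lower members was -1.19 without any scaling, against -1.71.

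**Figure D4:**
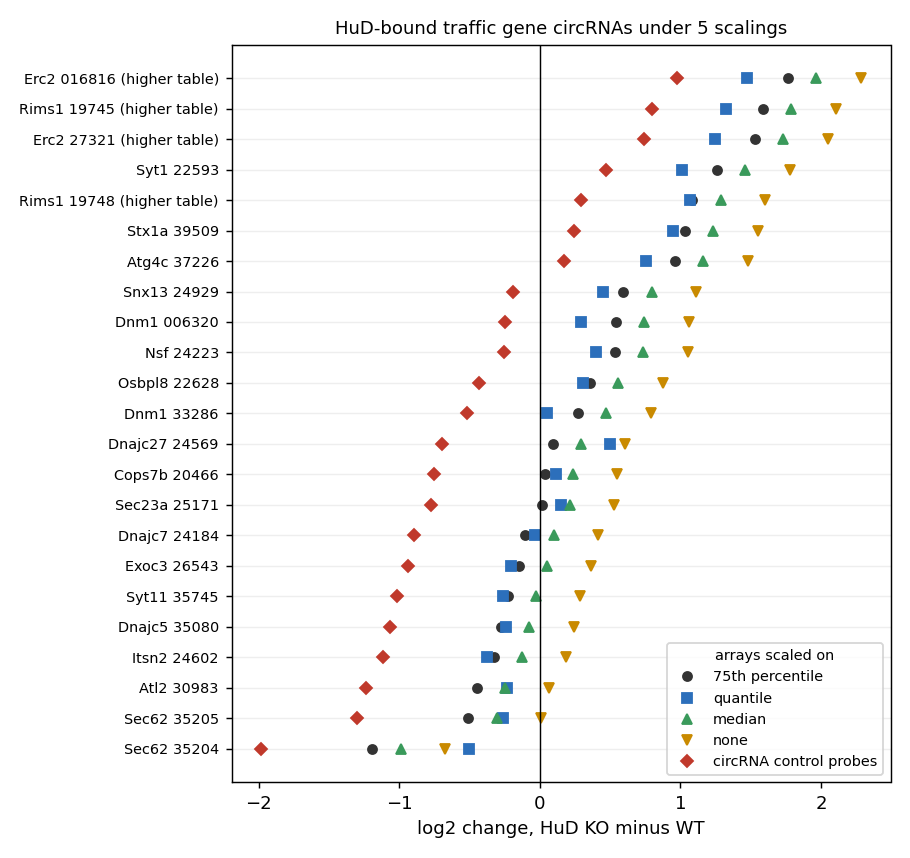
Log2 change (HuD KO minus WT) of 23 of the 24 HuD-bound circRNAs, 1 row each, under 5 ways of scaling the arrays, with 1 symbol per scaling. Rims1, Erc2 and Syt1 stay to the right of 0 under each of the 5, while Snx13, Nsf and Dnm1 mmu_circRNA_006320 lie left of 0 with the control probes.

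HuD KO 3, scanned alone, was the HuD KO array nearest to the WT mean in 41 of 52 higher members with all values (78.8%) and in 12 of 19 lower members (63.2%). In all the deposited tables this share was 68.7% of higher and 72.8% of lower circRNAs. The part of the scan in these changes was not tested. With scan as a random block, 8 of 13 kept a call, among them Atg4c, Syt1, both HuD-bound Rims1 and Erc2 circles and Sec62 mmu_circRNA_35204. No scan held arrays of both genotypes, so this block cannot separate scan from genotype.

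Class and span of the table members stand here beside those of the whole tables. Of the higher members 46 of 53 (86.8%) were exonic and of the lower ones 13 of 19 (68.4%), against 83.2% and 66.0% over the whole tables. The median genomic span was 24327 bases in the higher and 7815 bases in the lower members, against 17485 and 8040.5 bases over the tables. These are descriptions without a test.

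HuD is known to bind AU-rich and U-rich RNA, and the 60-base sequences were searched for 3 short motifs on both strands, which can overlap each other. On the printed strand, ATTTA was in 5 of 92 members (5.43%) and in 4.16% of all 3056 sequences, and on the other strand in 3.26% and 3.50%. The run of 5 T was in 6 members (6.52%) against 5.14%, and on the other strand in 5.43% against 9.36%. The motif TTTNTTT was in 4 members (4.35%) against 1.24%, and on the other strand in 4.35% against 3.96%. Of the 24 HuD-bound members, 2 held ATTTA, 1 held the T run and 2 held the last motif. These were 8.33%, 4.17% and 8.33%, against 4.86%, 3.50% and 1.06% of the 658 on the HuD-bound list. On the other strand, none of the 24 held any of the motifs. Counts this small are a description. The genomic span of the members ran from 87 bases to 355777 bases, so the share of a circle that was searched differed widely.

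The deposited tables list predicted miRNA sites for each circRNA. Over the 72 table members these named 257 miRNAs, of which 204 were in 1 member only. The 3 named most often are printed from RefSeq, with the seed (bases 2 to 8) in capitals.
mmu-miR-1903: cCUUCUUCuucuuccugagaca
mmu-miR-7092-3p: uGUUCUUUguuuuguuugccuuag
mmu-miR-107-5p: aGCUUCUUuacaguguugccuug
Sites of miR-1903 were listed in 14 of 72 members (19.4%), against 8.44% of the 2488 circRNAs in the tables, and those of miR-107-5p in 9 (12.5%), against 3.05%. For miR-7092-3p the shares were 15.3% and 10.9%. The 3 seeds differ, though each holds UUCUU. Circles of 1 host often share a listed miRNA, as the 2 Erc1 circles do for miR-1903, so these counts are not independent.

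Other traffic genes were taken from a list of 86 names (active zone, endocytic, Golgi and ESCRT genes) outside the prefixes. Of these, 19 had 27 circRNAs in the same sources, with 11 in the higher table, 9 in the lower table and 7 on the HuD-bound list alone. Of the 7, 3 rose, 2 fell and 2 did not pass. Over all probes tested, 63.4% were called, 26.2% higher and 37.2% lower, so this count is a description. Those that rose were Rabep1 mmu_circRNA_001848, an endosomal Rab5 effector (0.91 ± 0.15, limma adjusted p = 0.0012), Sh3gl3, an endophilin (0.68 ± 0.17, limma adjusted p = 0.0094), and Napb, which works with Nsf (0.62 ± 0.17, limma adjusted p = 0.0137). The circles of Ppfia2, a liprin of the active zone, fell by 1.47 (SE 0.15, limma adjusted p = 0.000144) and 0.94 (SE 0.19, limma adjusted p = 0.0031).

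Markers of cell types were read the same way. Of the striatal projection neuron markers, Adcy5, Bcl11b and Foxp1 had circRNAs in these sources, all well above background on the 3 WT arrays. The HuD-bound Foxp1 circles changed by 1.29, 0.48 and -3.69, each past the test, and Bcl11b differed by -0.27 (limma adjusted p = 0.219). The first Foxp1 circle was also in the higher table and the last in the lower table, and both tables were made on this contrast. Adcy5, from the lower table, was lower by -1.79. Of the neuron markers, Syt1 rose by 1.26, as above, and the Map2 circles differed by -0.02 and -0.01. The circle of Slc1a2, an astrocyte marker, rose by 0.70 (SE 0.17, limma adjusted p = 0.0090). The 2 of Pecam1, an endothelial marker, were from the lower table and were lower by -2.04 and -2.47. The second Pecam1 circle was well above background on only 2 HuD KO arrays. None of the markers listed for oligodendrocytes, their precursors and microglia was the host of a circRNA in the sources used here. The part of cell makeup in the changes above was not tested.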

How the data were processed

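Per the labels, each array measured 1 sample of striatal RNA after RNase R digestion. The deposited array files hold spot intensity values that the authors' scanner software had corrected for background, with no normalization between arrays. Main values were log2 intensities minus the array's 75th percentile over the circRNA probes. Spots flagged as outliers were left out (3 to 95 per array). Probes well above background on all 3 arrays of a group and with a value in both groups were kept (13445 of 14236). HuD KO was compared with WT by limma 3.58.1 (lmFit, eBayes) in R 4.3.3, with all 6 arrays and no covariate. P-values were adjusted over all probes tested by Benjamini-Hochberg, and calls were made at 0.05. The number of arrays limits the precision, and p-values measure only the spread between these samples. The code was tested on simulated data.

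The deposited tables also hold the authors' fold changes and p-values, which were not used. Of the study's HuD-bound list, membership, class and sequence alone were used. Replicate numbers came from the titles, and whether they pair the samples was checked (correlation of deviations -0.01, -0.03 and -0.08): they did not. Circles were named by a rule: all HuD-bound members, the 2 largest rises and falls of each host group, hosts with circles on both sides or both sources, and the 5 of highest WT level. Where fewer names are given, ranges stand for the rest. The circles of 1 host are counted among the members but are not reported here by name. The members, lists and tests were chosen with earlier results of these data known. Alternatives covered scaling, background correction (normexp with an offset of 50 on the median intensity), filters, tests, blocks and each array left out. Cops, Ercc and Snapc hosts match the prefixes by spelling. Columns of other samples numbered 0.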

Additional observations from a re-analysis of the deposited data

How the results depend on the processing

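Of the 20 HuD-bound circRNAs outside the deposited tables, 7 rose and 2 fell, 9 called in all, with a median log2 change of 0.06. With quantile normalization, 5 were called, 0 of them lower (limma, and 0 lower at an unadjusted p under 0.05, as Sec62 and Atl2 were lost), and with quantile normalization of the uncorrected intensity 0 were lower (limma, also at an unadjusted p) and the median was 0.24. With median scaling 1 was lower and the median was 0.26, and with no scaling 1 was lower and the median was 0.58. Scaled on the circRNA control probes, 1 was higher, 11 were lower and the median was -0.73, a reversal. With scan as a random block, 4 were called, 3 higher and 1 lower. At the study's threshold (over 2-fold and an unadjusted p under 0.05), 3 passed, 2 higher and 1 lower. With the 4 members of the higher table included, which was chosen after seeing the data, 11 were higher and the median was 0.31.

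Over all probes, 8519 were called, 3522 higher and 4997 lower. With no scaling 5348 were higher and 2552 lower, and with the control probes 607 were higher and 8528 lower. At the study's threshold 4557 passed, 1268 higher and 3289 lower. Leaving out 1 array at a time gave 4 to 9 calls among the 20, 3 to 7 higher, 1 to 3 lower and a median of 0.01 to 0.15, and 7086 to 9170 calls over all probes. The smallest of these counts, 4, came without WT replicate 2. With the replicate number as a block, a fit the shared numbers do not require, 8 of the 20 were called, 1 lower, and 7987 over all probes.

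The direction of HuD-bound circRNAs outside the tables turned as follows, and the cause was not tested. With the control probes, Snx13 was at -0.19, Dnm1 at -0.25 and -0.52, Nsf at -0.26, Osbpl8 at -0.43, Dnajc27 at -0.70, Cops7b at -0.76 and Sec23a at -0.78. With no scaling, Atl2 was at 0.068, Sec62 mmu_circRNA_35205 at 0.0092, Itsn2 at 0.19, Dnajc5 at 0.24, Syt11 at 0.29, Exoc3 at 0.37 and Dnajc7 at 0.41. With median scaling, Dnajc7 was at 0.10 and Exoc3 at 0.049. Dnajc27 was at -0.17 with normexp. Leaving out 1 array at a time, Dnajc27 ranged from -0.10 to 0.33, Sec23a from -0.040 to 0.056 and Cops7b from -0.060 to 0.17. Of all these, Snx13, Dnm1 mmu_circRNA_006320, Nsf and Atl2 had been called.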
